A study of Rattus norvegicus with 30 samples.

Results

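Dimethyl fumarate (DMF) and monomethyl fumarate (MMF) were compared in rat hippocampal neurons after 4 h of treatment, by RNA sequencing of 3 libraries per compound. All 18976 protein-coding genes of the table that sets these 6 libraries side by side were taken, of 20248 genes in that table and 21993 in all tables of the series. Of the 18976 genes, 14085 passed a filter on low counts and were tested. The neurons came from wild-type Wistar rat embryos at embryonic day 18 and had been in culture for 7 days. The DMF group received 30 µM DMF and the MMF group 30 µM MMF, each for 4 h in medium with 0.2% dimethyl sulfoxide (DMSO), which the vehicle group received alone. The series holds 30 libraries, among them the same groups after 24 h, and each experiment was repeated 3 times. The replicate number was used to pair the libraries, because libraries with the same number deviated together from their group means, with correlations across genes between 0.36 and 0.664. No label ties a number to a culture or a litter, so the p-values measure the spread between these libraries. The standard errors, intervals and p-values below also borrow spread from other genes. For 1 gene they can thus be narrower than its 3 pairs alone give.

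DMF is an oral treatment for multiple sclerosis that esterases hydrolyse to MMF. DMF carries a methyl ester at both ends of fumaric acid, and MMF has a free carboxylic acid in place of a methyl ester at its other end. Fumarate esters can add to the thiol groups of cysteines, including those of Keap1, the protein that marks the transcription factor Nrf2 for degradation, and of glutathione. Nrf2 drives antioxidant and detoxifying genes. Cells also answer misfolded protein in the endoplasmic reticulum (ER) by inducing ER chaperones, and answer several kinds of stress through the transcription factor ATF4, which drives amino acid transport and synthesis. The comparison asks whether the prodrug and its metabolite, at a matched dose and time, change the same transcripts in neurons. It is 1 pair of compounds.

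DMF and MMF left different transcriptomes at 4 h. With DMF, the heme oxygenase gene Hmox1, most ER chaperone genes and most genes of the ATF4 pathway were higher than with MMF, and most genes of sterol synthesis were lower. In the paired limma fit, 3334 of 14085 genes (23.7%) passed a Benjamini-Hochberg adjusted p of 0.05, which is what "called" means below. Of these, 1694 (12% of the genes tested) were higher with DMF and 1640 (11.6%) were lower. Most of these differences were small, with a median size of 0.35 on the log2 scale, and 961 genes were beyond 0.5 in size. A log2 fold change above 1 was found for 178 called genes, and 91 were below -1. In 3282 of the called genes all 3 pairs of libraries moved in the same direction. The 3 DMF libraries did not overlap with the 3 MMF libraries in 3406 genes (24.2% of those tested), of which 2261 were called.

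These counts depend on the pairing. Without the replicate block, 223 genes (1.58%) were called, all of them also called in the paired fit and in the same direction. Without the third pair of libraries, the paired fit called 1450 genes. Among the 10751 genes that were not called, the 95% interval of the difference lay within -0.5 and 0.5 for 8260 genes, and it reached past 1 or -1 for 707. The plot of all tested genes shows the spread of the differences against the level.

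**Figure D1:**
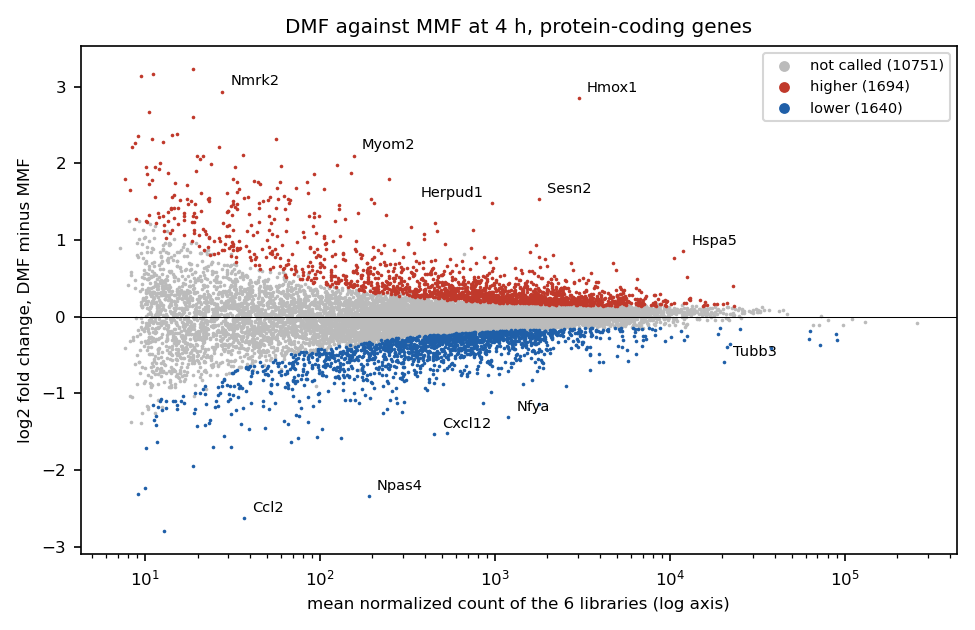
Log2 fold change of DMF minus MMF at 4 h (vertical axis) against the mean normalized count of the 6 libraries (horizontal axis, log scale) for 14085 protein-coding genes. The 1694 genes called higher are red, the 1640 called lower are blue and the 10751 not called are grey. Hmox1 stands apart at 2.86 among the abundant transcripts, and Npas4 and Ccl2 are the named genes furthest below 0.

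The 6 libraries held between 16201784 and 25367834 reads assigned to genes. The levels below are normalized counts, that is reads divided by a size factor for the library, and they are not divided by gene length, so levels are compared between libraries and not between genes. The neuronal markers Map2, Dcx, Tubb3 and Snap25 were abundant in all 6 libraries, as the label of hippocampal neurons says. The astrocyte markers Gfap, Fabp7 and Slc1a3 were abundant too. The summed level of the 10 astrocyte markers ranged from 56793 to 107813 with DMF and from 62823 to 110881 with MMF, and the lowest value of each group was in the third pair. Of the 10 microglia markers, 4 had a mean below 10, and the sum ranged from 81.6 to 311 with DMF and from 37.2 to 308 with MMF. In bulk libraries, fewer cells of a type and less RNA per cell cannot be told apart.

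Hmox1, which encodes the stress-induced heme oxygenase, had the smallest p of the 14085 genes and the greatest rise among those with a mean of at least 50. Its normalized counts were 6691, 6280 and 2905 in the 3 DMF libraries and 856, 1050 and 357 in the MMF libraries of the same numbers. The third pair was the lowest in both groups, and the groups did not overlap. A leading gene had to show no overlap and 1 direction in all pairs, so these traits come with the choice. Hmox1 (19:13467244-13474079, mRatBN7.2) was 7.24-fold higher with DMF, a log2 fold change of 2.86 ± 0.07 (standard error, n = 3 pairs, limma adjusted p = 1.26e-14). Against DMSO, its log2 fold change was 3.92 with DMF and 1.06 with MMF, the latter with a 95% interval of 0.77 to 1.35 and an adjusted p of 0.117.

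Sesn2 encodes sestrin 2, a stress-induced protein that restrains mTORC1. It stood at 2202, 2555 and 3229 with DMF and at 737, 1098 and 928 with MMF, so every DMF library was above every MMF library. The log2 fold change was 1.53 ± 0.08 (n = 3 pairs, limma adjusted p = 2.14e-09). Myom2, a gene of the sarcomere M-band, was at 197, 296 and 268 with DMF against 49.99, 73.1 and 51.8 with MMF, a log2 fold change of 2.10. Wfikkn1, whose product binds myostatin-like factors, rose by 1.79 (SE 0.12), and Spon2, an extracellular matrix gene, by 1.87 (SE 0.14). Further leading genes that rose encode nuclear factors. Pcf11, a factor for cleavage of the 3′ end of transcripts and for termination, stood at 2178, 2158 and 2493 with DMF and at 1240, 1163 and 1151 with MMF. Dgcr8, the partner of Drosha in microRNA processing, rose by 0.85 (SE 0.06), and Ppp1r10, a nuclear partner of protein phosphatase 1, by 0.81 (SE 0.06).

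Cxcl12, a chemokine gene that also guides neuronal migration, led the genes that were lower with DMF. Its counts were 309, 214 and 170 with DMF and 822, 732 and 454 with MMF, without overlap, and the log2 fold change was -1.53 ± 0.10 (n = 3 pairs, limma adjusted p = 1.18e-08). Nfya encodes the regulatory subunit of NF-Y, the factor that binds CCAAT boxes. It stood at 749, 668 and 628 with DMF and at 1496, 1637 and 1955 with MMF, a log2 fold change of -1.31 ± 0.09 (limma adjusted p = 2.57e-08). Each DMF library was below every MMF library. The somatostatin receptor gene Sstr2 had a log2 fold change of -1.51, the purine nucleoside phosphorylase gene Pnp of -1.14 and the transcription factor gene Klf7 of -0.87. Pnp passed without overlap at 1452, 1360 and 649 with DMF against 2552, 2783 and 1951 with MMF, but it was not called without the replicate block (adjusted p = 0.0913). Further genes that fell were Rcor2, a corepressor (-0.74), and Atf7ip, a partner of a histone methyltransferase (-0.65). B4galt7, a galactosyltransferase of the glycosaminoglycan linker (-0.88), and LOC120094123 (-0.67) fell too. The plot of leading genes by library shows these pairs.

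**Figure D2:**
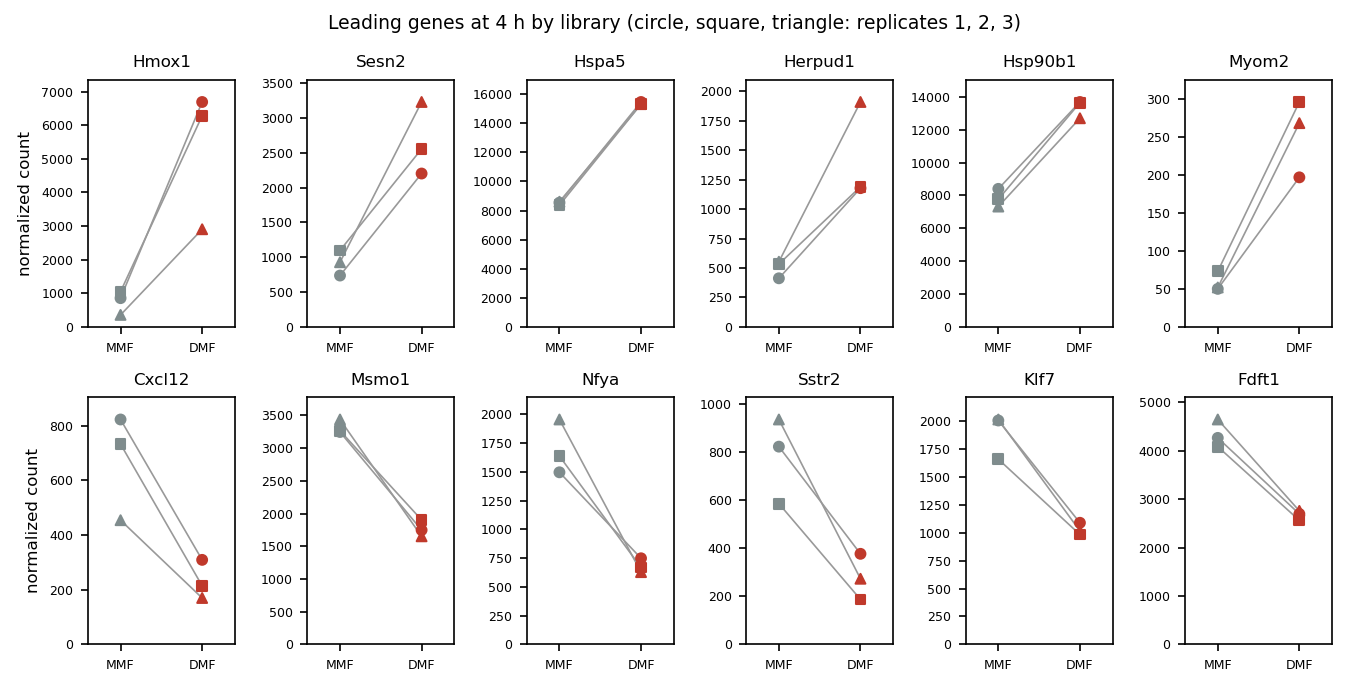
Normalized counts (vertical axes, starting at 0) of 6 leading genes in each direction in the MMF and DMF libraries at 4 h, with lines joining libraries of the same replicate number. By the rule of choice, which required no overlap, the DMF libraries lie above all MMF libraries in the upper row and below them in the lower row. The third pair of Hmox1, at 2905 and 357, lies below the other pairs with nearly the same ratio.

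Several of the large differences were in scarce transcripts. Nmrk2, a nicotinamide riboside kinase gene, was at 30.8, 34.0 and 84.4 with DMF and at 1.92, 7.19 and 7.88 with MMF, a log2 fold change of 2.93 (95% interval 2.19 to 3.68). Dao, the D-amino acid oxidase gene, was at 74.3, 89.7 and 117 against 13.5, 22.8 and 18.0. Snorc and Vill rose by 2.21 and 2.11. None of these groups overlapped. In the other direction, Ccl2, a chemokine that attracts monocytes, was at 17.0, 7.74 and 2.75 with DMF and at 29.8, 132 and 32.7 with MMF. Its log2 fold change was -2.62 with a 95% interval of -3.53 to -1.71, and its pairs gave -0.78, -3.93 and -3.17. Rimbp3, Arhgap25 and LOC680875 had log2 fold changes of -1.70, -1.69 and -1.64. These values rest on few reads, and their intervals are wide.

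Most genes of the ER chaperones and the unfolded protein response were higher with DMF. Of 27 tested genes, 20 were higher with DMF (74.1%), 1 was lower (3.7%) and 6 were not called. Over all genes tested, 12% were higher and 11.6% were lower. The median log2 fold change was 0.36, against 0.01 over all genes tested. Hspa5 encodes BiP, the main Hsp70 of the ER. It was at 15462, 15316 and 15315 with DMF and at 8542, 8370 and 8606 with MMF. The libraries within a group lay close together and the groups far apart, and the log2 fold change was 0.85 ± 0.05 (n = 3 pairs, limma adjusted p = 2.61e-09). Hsp90b1, the Hsp90 of the ER, was at 13685, 13644 and 12694 against 8400, 7766 and 7321. Herpud1, which takes part in the degradation of ER proteins, was at 1177, 1189 and 1908 against 412, 533 and 553. Hyou1, another ER chaperone, rose by 0.70 (SE 0.05). The member that fell was Atf6, a sensor of the response that is itself cut to a transcription factor, with a log2 fold change of -0.25. No gene of this list was called lower in DESeq2 with the block, without the third pair or without the block. Xbp1, whose unconventional splicing gives another such factor, was not called at 0.12 (95% interval -0.01 to 0.24). Manf, a secreted ER factor, stood at 13.8, 13.9 and 18.3 against 7.69, 9.59 and 4.50 and was not called at 1.03 (95% interval 0.16 to 1.89). The counts are of all Xbp1 reads and do not separate spliced from unspliced Xbp1. Without the replicate block, 9 of the 20 genes were called higher, Hspa5, Hsp90b1, Herpud1 and Hyou1 among them.

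The ER stress response element, a site in 2 parts that NF-Y and ATF6 bind together, was searched in 300-base windows around the RefSeq gene starts (250 bases before and 50 after). The element was present in 10 of 1578 windows of genes called higher (0.634%), in 1 of 1413 windows of genes called lower (0.0708%) and in 18 of 12372 windows over all tested genes (0.145%). Windows were matched by symbol, for 10845 of the tested genes, and a gene can have several. Of the 18 called ER genes with a window, 7 held the element, namely Hspa5, Hsp90b1, Creld2, Dnajc3, Calr, Derl3 and Canx. All 7 were called higher, so their windows with the element are part of the 10 above. The Hspa5 window is shown with the element in capitals, because Hspa5 has the smallest p of the 7 (RefSeq, GRCr8, chr3:38452766-38453065, plus strand).
Hspa5: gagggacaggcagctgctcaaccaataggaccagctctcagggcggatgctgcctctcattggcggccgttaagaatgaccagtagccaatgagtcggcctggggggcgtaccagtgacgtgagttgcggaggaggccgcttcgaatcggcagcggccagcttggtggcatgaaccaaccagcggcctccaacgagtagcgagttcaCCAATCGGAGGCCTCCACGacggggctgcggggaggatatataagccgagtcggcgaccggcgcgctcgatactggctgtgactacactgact

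Genes of the ATF4 pathway were mostly higher with DMF, with a median log2 fold change of 0.43. Of 30 tested genes, 22 were higher, none was lower and all 30 had a positive log2 fold change. Sesn2 belongs to this list. Ddit3, which encodes the stress factor CHOP, was at 620, 559 and 745 with DMF and at 251, 277 and 364 with MMF, a log2 fold change of 1.11 ± 0.09 (limma adjusted p = 1.6e-07). Chac1, a glutathione-degrading enzyme, was at 532, 500 and 899 against 211, 303 and 295, again without overlap. Ddit4l, an inhibitor of mTORC1, was at 440, 283 and 176 against 158, 94.7 and 65.3. Its level varied widely between pairs while the ratio held, and it was not called without the block (adjusted p = 0.0986). Atf4 itself rose by 0.41, the glycine transporter gene Slc6a9 by 0.55 and the cystine transporter gene Slc7a11 by 0.78. The pairs of Slc7a11 differed, with log2 ratios of 0.13, 0.74 and 1.47, and its groups overlapped. In DESeq2 with the block, Slc7a11 was not called (adjusted p = 0.177). The enzyme gene Phgdh, which opens serine synthesis, was not called at 0.07 (95% interval -0.04 to 0.19), and neither was Ddit4 at 0.11 (95% interval -0.04 to 0.27). Of the 20 cytosolic aminoacyl-tRNA synthetases, several of which ATF4 drives, 4 were higher (20%) and 2 lower (10%), against 12% and 11.6% over all genes. Cars1 was at 0.45, Iars1 at 0.37, Aars1 at 0.32 and Qars1 at -0.25. Without the replicate block, 4 ATF4 pathway genes (Sesn2, Ddit3, Mthfd2 and Atf4) and no synthetase gene were called.

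The C/EBP-ATF response element, TGATGNAA on either strand, was found in 43 windows of genes called higher (2.72%), in 30 of genes called lower (2.12%) and in 264 over all tested genes (2.13%). The called members of the ATF4 list with the element were Chac1, Slc7a1, Slc1a4 and Trib3, of 19 with a window. The Chac1 window is shown with the element in capitals, because it is the member with the smallest p that holds it (RefSeq, GRCr8, chr3:126795881-126796180, plus strand).
Chac1: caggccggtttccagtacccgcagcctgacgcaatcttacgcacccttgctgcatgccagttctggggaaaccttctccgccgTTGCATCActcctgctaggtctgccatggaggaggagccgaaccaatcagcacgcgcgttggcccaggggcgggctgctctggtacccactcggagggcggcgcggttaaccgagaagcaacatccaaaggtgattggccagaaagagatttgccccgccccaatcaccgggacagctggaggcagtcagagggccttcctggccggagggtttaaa

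The Nrf2 pathway was described by 14 of the genes that the text of the study names, Nrf2 and Keap1 included. The study wrote of these genes with these data in hand, so the list is not independent evidence of its direction. Gstm1, which that text names as Nrf2-related in microglia, was left out of the list, and its value is not reported here. Of the 14, 9 were higher with DMF (64.3%), none was lower and 5 were not called, against 12% higher and 11.6% lower over all genes. The median log2 fold change was 0.45. Txnrd1, the cytosolic thioredoxin reductase, was at 4300, 4066 and 3625 with DMF and at 2682, 2994 and 2883 with MMF, a log2 fold change of 0.48 ± 0.06 (limma adjusted p = 2.79e-05). Nqo1, a quinone reductase, was at 974, 632 and 460 against 649, 404 and 315. The pairs differed widely in level, so the groups overlapped, although each DMF library was above the MMF library of its number. The log2 fold change of Nqo1 was 0.59, with an adjusted p of 3.84e-05 in the paired fit and of 0.392 without the block. The glutathione transferase gene Gsta1 was at 0.56, and Osgin1, an oxidative stress growth inhibitor, at 1.32. Gclc and Gclm, the catalytic and modifier subunits of the enzyme that opens glutathione synthesis, were at 0.34 and 0.41. Srxn1, the sulfiredoxin gene, was at 0.70, and Slc7a11 and Hmox1 belong to this list too. Of the genes not called, the malic enzyme gene Me1 stood at 0.16, Nfe2l2, which encodes Nrf2, at 0.17 (95% interval -0.03 to 0.37), Gstp1 at 0.11, Txn1 at 0.07 and Keap1 at -0.10. All 5 intervals lay within -0.5 and 0.5. The genes of this list called without the block were Hmox1 and Txnrd1.

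Of 25 other tested genes tied to Nrf2, 6 were higher (24%) and 1 was lower (4%), against 12% and 11.6% over all genes. Mafg, a small Maf partner of Nrf2, rose by 0.45 (SE 0.05) and was the member called without the block, and Ugdh rose by 0.38. Abcc4, an efflux pump, rose by 0.41, and Abcc1, a related pump, was the member that fell, by 0.22. The antioxidant response element, TGACNNNGC on either strand, was held by 13.6% of the windows of genes called higher, by 15% of those of genes called lower and by 14.3% of all, so these shares were close. Among the 15 called Nrf2 genes with a window, Txnrd1, Gsta1, Ugdh and Gclm held it. The Txnrd1 window is shown for the same reason as above, written along the gene (RefSeq, GRCr8, chr7:22755855-22756154, minus strand).
Txnrd1: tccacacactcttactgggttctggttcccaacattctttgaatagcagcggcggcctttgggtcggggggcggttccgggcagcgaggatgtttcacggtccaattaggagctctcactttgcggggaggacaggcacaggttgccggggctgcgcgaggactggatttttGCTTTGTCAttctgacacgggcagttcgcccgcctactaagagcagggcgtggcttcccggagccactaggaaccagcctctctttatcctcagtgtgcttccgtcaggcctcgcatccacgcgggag

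Of 26 tested heat shock genes of the cytosol and mitochondria, 8 were higher (30.8%, against 12% over all genes). In this list 1 was lower (Dnajb5, -0.19) and the median was 0.12. Dnajb5 was not called in DESeq2 with the block or without the third pair. Hspa8, the constitutive cytosolic Hsp70, was at 25374, 25850 and 27245 with DMF and at 18867, 19638 and 20930 with MMF, a log2 fold change of 0.40 ± 0.05 (limma adjusted p = 1.05e-05). Hsph1, Fkbp4 and Dnajb1, co-chaperones of Hsp70 and Hsp90, rose by 0.39, 0.32 and 0.38. Hsp90ab1 was not called at 0.08 (95% interval -0.02 to 0.18). No gene of this list was called without the block. Of the 31 proteasome subunits tested, none was higher and 2 were lower (6.45%, against 11.6% over all genes), Psmd12 (-0.22) and Psmc4 (-0.21). Neither was called without the third pair. Of 26 autophagy genes, 7 were higher (26.9%, against 12% over all genes), among them Gabarapl1 (0.25), Ulk1 (0.29), Sqstm1 (0.21) and Wipi1 (0.25). Without the third pair 1 autophagy gene was called, and without the block 0 were.

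Genes of sterol synthesis and uptake were lower with DMF. Of 27 tested genes, 17 were lower and none was higher, with a median log2 fold change of -0.30. Msmo1, a sterol C4 demethylase, was at 1748, 1903 and 1652 with DMF and at 3247, 3266 and 3438 with MMF. The groups lay far apart, with a log2 fold change of -0.91 ± 0.06 (n = 3 pairs, limma adjusted p = 2.2e-08). Fdft1, squalene synthase, was at 2695, 2561 and 2758 against 4266, 4085 and 4646. Idi1, an isomerase of the same route, fell by 0.61 (SE 0.06). Without the replicate block, 4 genes of the list were called, Msmo1, Fdft1 and Idi1 among them. Cyp51 and Fdps, also of the route, were not called, each at -0.08, with intervals of -0.19 to 0.03 and of -0.18 to 0.03. Hmgcs1, an early enzyme of the route, fell by 0.36 and Sqle, squalene epoxidase, by 0.39. Against 11.6% lower and 12% higher over all genes, 2 of the 12 genes of fatty acid synthesis were lower (16.7%) and none was higher. They were Srebf1, which encodes a driver of lipid synthesis genes (-0.44), and Scd (-0.18). Fasn was not called at 0.09 (95% interval -0.01 to 0.19).

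**Figure D3:**
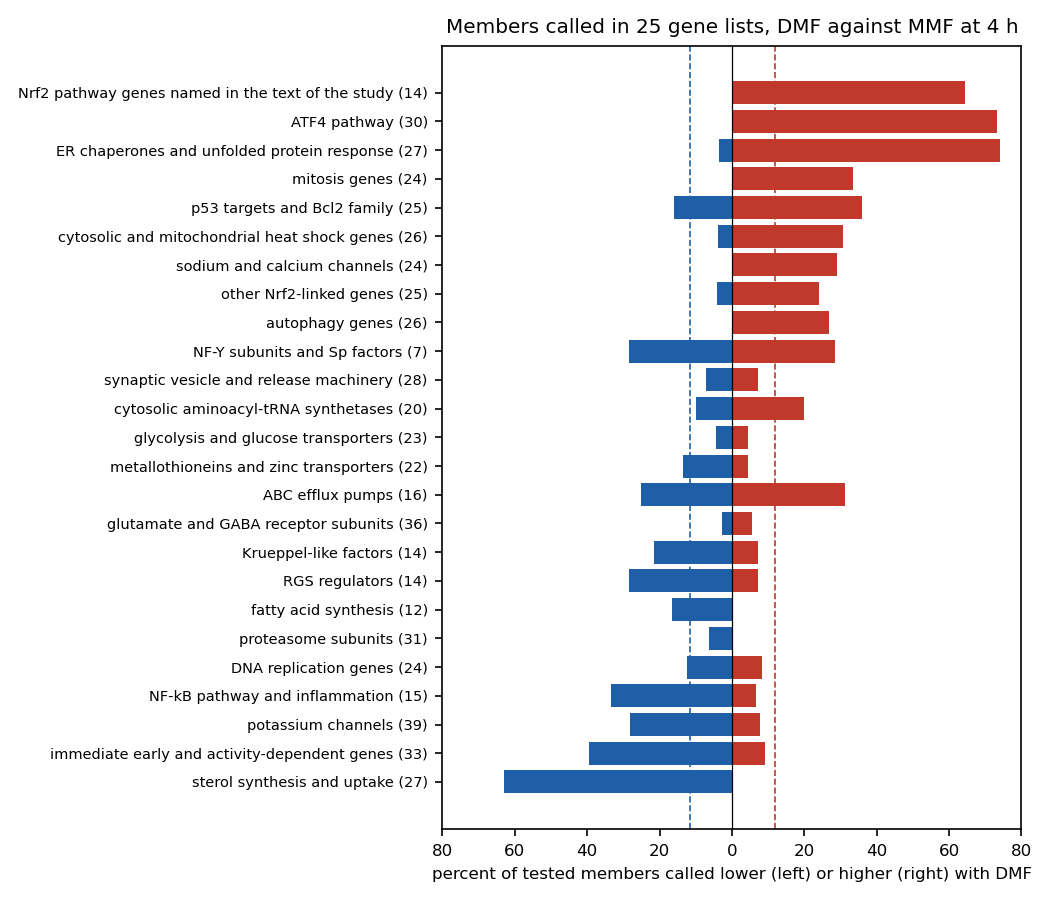
Percent of the tested members of 25 gene lists that were called higher (red, right) or lower (blue, left) with DMF against MMF at 4 h, in order of the median log2 fold change, with the number tested in parentheses. Dashed lines mark the shares over all 14085 genes, 12% higher and 11.6% lower. The ER, ATF4, Nrf2 and sterol lists reach furthest beyond these lines.

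Immediate early and activity-dependent genes, which neurons switch on in response to firing, were lower in larger number than higher with DMF. Of 33 tested, 13 were lower (39.4%) and 3 were higher (9.09%), against 11.6% and 12% over all genes, with a median of -0.27. Npas4, an activity-induced transcription factor of neurons, was at 42.5, 34.0 and 80.7 with DMF and at 661, 121 and 201 with MMF. The 3 MMF libraries were spread widely, yet none came down to the DMF values, and the log2 fold change was -2.34 (95% interval -2.98 to -1.71, limma adjusted p = 3.11e-05). Its 3 pairs differed, with log2 ratios of -3.93, -1.80 and -1.30. Nr4a3 was at 2772, 2637 and 3250 against 3695, 3364 and 4383. Rgs2, Btg2, Fos and Arc had log2 fold changes of -0.58, -0.50, -1.06 and -1.08. The members that rose were Dusp4 (0.34), Vgf (0.29) and Homer1 (0.18). Jund at -0.13 (95% interval -0.28 to 0.02) was not called. No gene of this list was called without the block, in which Npas4 had an adjusted p of 0.088. Against DMSO, the log2 fold change of Npas4 was -2.98 with DMF and -0.64 with MMF (95% interval -1.49 to 0.20).

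Of 39 potassium channel genes, 11 were lower (28.2%) and 3 were higher (7.69%). Of 24 sodium and calcium channel genes, 7 were higher (29.2%) and none was lower. Over all genes, 12% were higher and 11.6% lower. Kcna1, a voltage-gated potassium channel, was at 1664, 996 and 1398 with DMF and at 2499, 1493 and 2146 with MMF. The groups overlapped, although each pair gave nearly the same ratio, and the log2 fold change was -0.60 ± 0.06 (limma adjusted p = 1.57e-06). Kcnk1, Kcnn2 and Kcng1 fell by 0.69, 0.59 and 0.54. Kcna2 was not called at -0.15 (95% interval -0.29 to -0.02). Among the calcium channel genes, Cacnb1, an auxiliary subunit, was at 2372, 2318 and 2907 against 1756, 1953 and 2169, a rise of 0.37, and Cacnb3, Cacna1c and Cacnb4 rose by 0.21, 0.19 and 0.25. No channel gene was called without the block, and without the third pair 1 sodium or calcium channel gene was. Of 14 genes of regulators of G protein signaling (RGS), 4 were lower (28.6%) and 1 was higher (7.14%), against 11.6% and 12% over all genes. The lower ones were Rgs8 (-0.81), Rgs4 (-0.60), Rgs2 (-0.58) and Rgs16 (-0.51), and Rgs17 rose by 0.37. None of these 5 was called without the block.

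Of 28 genes of synaptic vesicles and release, 2 were higher and 2 lower (7.14% each, against 12% and 11.6% over all genes), with Vamp1 at -0.36 and Syt4 at -0.19. Slc17a6 and Unc13a were at 0.21 and 0.15. None of the 4 was called without the third pair or without the block. Of 36 glutamate and GABA receptor subunits, 2 were higher (5.56%), Grik5 (0.25) and Gabbr2 (0.19), and 1 was lower (2.78%), Grin2a (-0.25). Of these 3 genes, 1 was called without the third pair and 0 without the block. Slc17a7, the vesicular glutamate transporter, was not called at 0.08 (95% interval -0.02 to 0.19). Of 23 glycolysis genes, 1 was higher, Tpi1 (0.19), and 1 was lower, the glucose transporter gene Slc2a1 (4.35% each way). The counts of Slc2a1 were 866, 921 and 290 with DMF and 1352, 1534 and 542 with MMF, so the third pair stood far below the others and the groups overlapped. Its log2 fold change was -0.76 in the paired fit and its adjusted p was 0.499 without the block.

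Among genes of cell death and the cell cycle, 9 of 25 p53 targets and Bcl2 family genes were higher (36%) and 4 were lower (16%). Plk3 was at 289, 320 and 454 with DMF and at 178, 232 and 265 with MMF, a log2 fold change of 0.64. Phlda3 and Zmat3, both p53 targets, rose by 0.60 and 0.35, and Plk2 fell by 0.31. Bcl2l2 was not called (95% interval -0.35 to -0.04). Without the third pair 6 genes of this list were higher and 2 lower, and 0 were called without the block. Of 24 mitosis genes, 8 were higher (33.3%), among them Kif23 (0.42), Troap (0.39), Prc1 (0.30), Plk1 (0.28), Top2a (0.19) and Cdc20 (0.25), and none was lower. Without the third pair 1 mitosis gene was called, and 0 were without the block. Of 24 DNA replication genes, 2 were higher and 3 lower, with Ccne1 at 0.53 and Pcna at -0.27. These shares, 8.33% and 12.5%, are near the 12% and 11.6% over all genes, and the 5 calls became 1 without the third pair and 0 without the block.

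Of 15 tested genes of the NF-kB pathway and inflammation, 5 were lower (33.3%) and 1 was higher (6.67%), against 11.6% and 12% over all genes. Besides Ccl2, the lower genes were Tnfaip3 (-0.66), Ptgs2 (-0.68), Icam1 (-0.86) and Nfkbia (-0.37), and Relb rose by 0.57. Tnfaip3 was at 222, 185 and 102 against 336, 278 and 177, with overlap between the groups. Of these 6 genes, 2 were called in DESeq2 with the block, 4 without the third pair and 0 without the block. Of 22 genes of metallothioneins and zinc transporters, 3 were lower (13.6%) and 1 was higher (4.55%), against 12% higher and 11.6% lower over all genes. Mt2A and Mt1, which encode metal-binding proteins, fell by 0.66 and 0.63. Both were lowest in the third pair, at 343 with DMF and 545 with MMF for Mt2A, and both lost the call without the block. They share sequence with each other, so reads could be split between them. Of 16 efflux pump genes of the ABC family, 5 were higher (31.25%), with Abcg4 at 0.38 and Abca3 at 0.23. Another 4 were lower (25%), with Abcb8 at -0.27, and 0 of these 9 were called without the block. Among the 14 Krueppel-like factors, 3 were lower (21.4%) and 1 was higher (7.14%). Klf7 and Klf6 (-0.74) fell with and without the block, Klf15 was at -0.45 and Klf16 rose by 0.33. Of the 7 genes of NF-Y and Sp factors, Nfya and Sp2 (-0.30) were lower and Sp4 (0.30) and Sp1 (0.18) were higher. Nfyc was not called at 0.14 (95% interval -0.01 to 0.28).

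Markers of other cells of the culture were counted beside the 12% higher and 11.6% lower over all genes. Of the 10 astrocyte markers, 3 were lower with DMF (30%) and none was higher, with Gfap at -0.39. Of 9 oligodendrocyte lineage markers tested, 3 were lower (33.3%), with Pdgfra at -0.70. Of 12 interneuron markers, 3 were lower (25%), and none of the 6 tested microglia markers was called. Of the 10 neuronal markers, Tubb3 was lower (-0.59) and Rbfox3 was higher (0.23). Neural progenitor markers gave 1 higher and 2 lower genes of 8, and markers of fibroblasts and vessel cells 2 higher and 2 lower of 8, with Pdgfrb, a pericyte marker, at -1.09 and called also without the block. The lists are small, so these shares rest on 1 to 3 genes each. None of the 3 astrocyte, 3 oligodendrocyte lineage and 3 interneuron genes was called without the block. The part of these cells in the other results was not tested. In 12372 windows, the cAMP response element, TGACGTCA, was held by 2.03% of those of genes called higher, 4.53% of those of genes called lower and 2.95% of all. The CCAAT box was held by 38.1% of the windows of higher genes, 38.1% of those of lower genes and 36.9% of all, and the corresponding shares were 4.82%, 5.31% and 5.63% for the heat shock element, GAANNTTC, and 62.3%, 60.4% and 60.4% for the metal response element, TGCNCNC. The motifs can overlap, and these shares are descriptions without a test.

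Each compound was also set against the vehicle at 4 h. These comparisons use the same DMF and MMF libraries, so they are not independent of the results above, and their values only place each compound relative to DMSO. DMF against DMSO called 3262 of 14085 genes (23.2%). MMF against DMSO called none of 13929 genes (0.0%) in the paired limma fit, in which 132 genes (0.948%) had an unadjusted p below 0.05 and the lowest adjusted p was 0.117. The paired edgeR fit called 0 genes and DESeq2 called 1. Leaving out a pair gave 3, 115 and 9 calls, the 115 without the second pair. The log2 fold change against DMSO of Hspa5 was 0.88 with DMF and 0.03 with MMF (95% interval -0.13 to 0.18). For Nfya it was -1.33 with DMF and -0.03 with MMF (95% interval -0.20 to 0.15). Ddit4l stood at 2.43 with DMF and at 0.94 with MMF (95% interval 0.46 to 1.42), and Osgin1 at 2.46 and 1.12 (95% interval 0.25 to 2.00), so the intervals of these genes and of Hmox1 lay above 0 with MMF, but none of them was called. Gclc (0.32, 95% interval 0.14 to 0.51) and Rgs2 (-0.35, 95% interval -0.56 to -0.13) also had MMF intervals clear of 0 without a call. Against DMSO, the median of the immediate early list was -0.53 with DMF and -0.33 with MMF. It was -0.45 and -0.14 for the sterol list, and 0.66 and 0.14 for the 14 Nrf2 genes. Over all genes tested the medians were 0.002 and -0.01. The plot of each compound against the vehicle gives the leading genes.

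**Figure D4:**
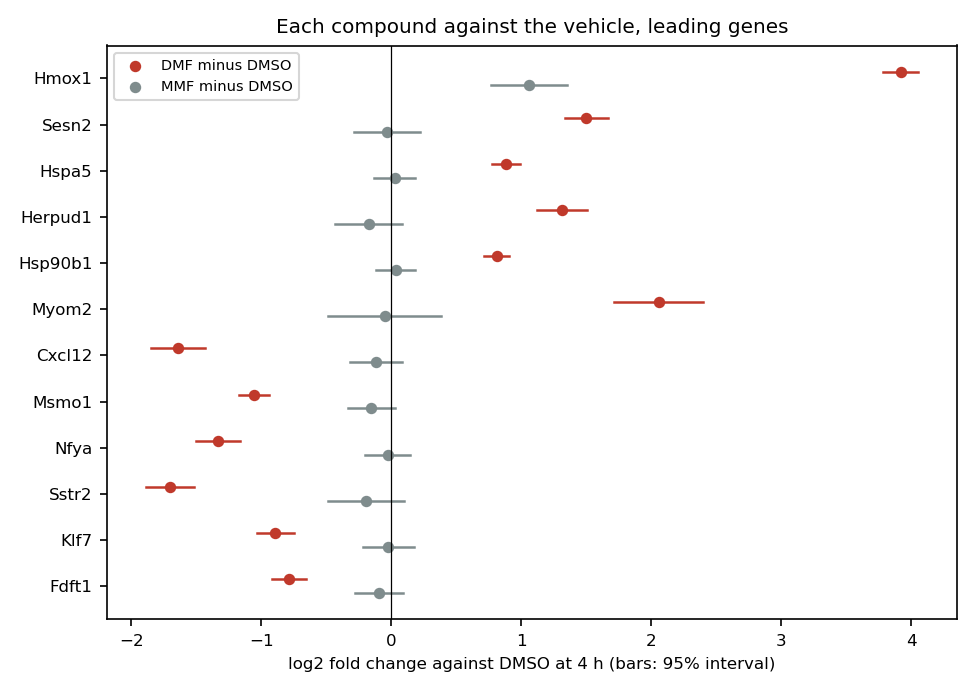
Log2 fold change against DMSO at 4 h (horizontal axis) of 6 leading genes in each direction, for DMF (red) and MMF (grey), with bars for the 95% interval. MMF lies near 0 for all of them but Hmox1, which stands at 1.06 with MMF and 3.92 with DMF.

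The same pair of compounds at 24 h shows which differences lasted. DMF against MMF called 1737 of 14123 genes (12.3%) at 24 h, of which 702 (4.97%) were higher and 1035 (7.33%) were lower. The test of the difference between times, over 12 libraries, called 2373 of 14458 genes (16.4%). The DMF minus MMF difference rose from 4 h to 24 h in 1081 of them and fell in 1292. The ATF4 list had a median of 0.44 at 24 h with 14 genes higher and 1 lower, and Sesn2 (1.16), Ddit3 (1.07), Chac1 (1.23) and Ddit4l (2.05) were called at both times. For these 4 genes the difference between times was not called. In the ER list, this difference fell from 4 h to 24 h for 18 genes and rose for 1. Between the compounds at 24 h, 7 of the 26 genes tested were lower with DMF, with Hspa5 at -0.38 and Hsp90b1 at -0.54, and 3 were higher, Herpud1 (0.45), Eif2ak3 (0.61) and Ern1 (0.43). The immediate early genes went the other way. At 24 h 17 of them were higher with DMF and none was lower, and for 22 the DMF minus MMF difference rose from 4 h to 24 h. All 24 mitosis genes were lower with DMF at 24 h, with a median of -1.30, and Top2a went from 0.19 to -1.67 and Cdc20 from 0.25 to -1.46. Rgs4 went from -0.60 to 1.76, and Srebf1 and Fasn, the lipid synthesis genes, from -0.44 to 1.26 and from 0.09 to 0.98. Nfya, Cxcl12 and Sstr2 were not called at 24 h, at 0.11, 0.02 and 0.10. In the sterol list, 12 genes were lower at 24 h and 2 were higher. Hmox1 was still higher, by 1.97 (limma adjusted p = 0.0056), and its difference between times was not called. In the list of 14 Nrf2 genes, 12 were higher at 24 h and none was lower, and Nqo1 stood at 1.38.

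**Figure D5:**
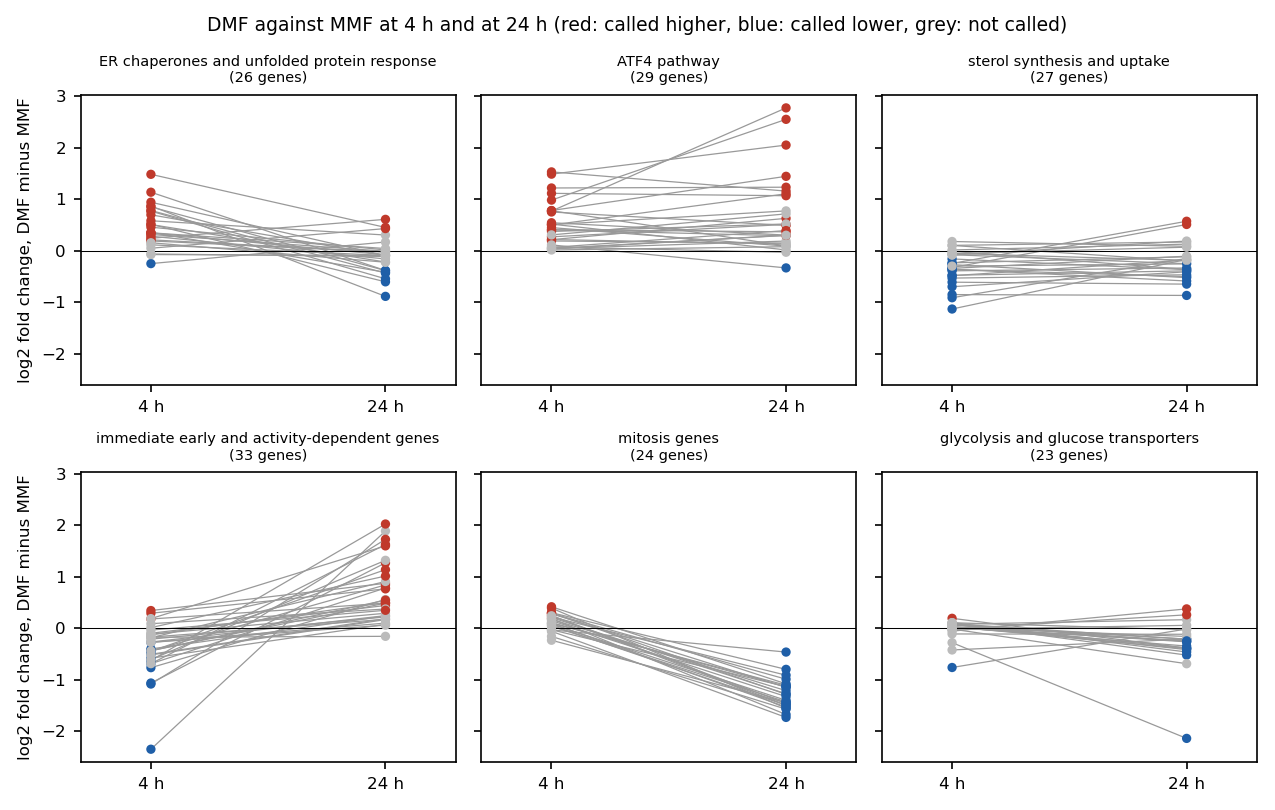
Log2 fold change of DMF minus MMF (vertical axis) at 4 h and 24 h for genes of 6 lists, with a line per gene and points coloured red where called higher, blue where called lower and grey where not called. The mitosis genes have a median of -1.30 at 24 h, the immediate early genes go from a median of -0.27 to 0.50, and the ATF4 genes from 0.43 to 0.44.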

How the data were processed

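Poly(A)+ RNA of 30 libraries was sequenced. According to the submitters' processing notes, reads were checked with FastQC 0.12.1, trimmed with cutadapt 4.4 and Trimmomatic 0.39, aligned with HISAT2 2.2.1 to mRatBN7.2 and counted per gene with HTSeq 2.0.3 on Ensembl release 111. The authors deposited a signal per gene and library, namely counts divided by a DESeq2 1.40.2 size factor. Whole reads were recovered from these values, and 100% of the values came out whole within 0.001 read. The deposited fold changes and p-values of the authors' own comparisons were not used. Whether counting used the strand is not given in the sources used here.

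The 6 libraries of DMF and MMF at 4 h were compared with limma 3.58.1 (eBayes with trend) on log2(normalized count + 1) in R 4.3.3, with the replicate number as a block, after filterByExpr of edgeR 4.0.16 on the reads. Fold changes are on this scale, which understates the change of low genes. P-values were two-sided. The Benjamini-Hochberg adjustment ran over the 14200 tested genes of every biotype, of which the 14085 protein-coding ones are reported. Of the 115 others, 13 were called. Same-numbered libraries correlated at 0.559, 0.36 and 0.664 in their deviations from the group means, and differently numbered ones at -0.526 to 0.0655. DMF against DMSO, MMF against DMSO, the 24 h pair and the difference between times were fitted in the same way. Same-numbered libraries correlated at 0.338 to 0.6 for DMF against DMSO and at 0.256 to 0.465 for the 24 h pair. For MMF against DMSO they correlated at 0.532, 0.129 and 0.652. The second of these was no higher than that of MMF replicate 2 with DMSO replicate 1, at 0.134. On the recovered reads, edgeR's quasi-likelihood test with the block called 3316 genes. DESeq2 1.42.0 was another alternative, as were the fit without the block, other scalings, filters and pseudocounts, and each pair left out.

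On simulated counts for the 4 h comparison over 14200 genes, 89.5% of 200 genes changed by 1 on the log2 scale were recovered with the block, and 62% without it. Of the genes called there, 6.3% had not been changed with the block, and 0% without it. The simulated counts carried the replicate effects that the block removes, so they cannot show whether the block suits these data. Far fewer genes were changed than were called in the data, and all by the same size, so these shares do not carry over. Genes were named by rule. In each direction, the 12 with the smallest p were taken among those with a mean of at least 50. They also had to show 1 direction in all pairs and no overlap. The 5 with the largest change in each direction with a mean of at least 20 were added. So were up to 4 called and 2 uncalled members of each list and the 14 listed Nrf2 genes. The difference between times gave 3 genes in each direction. Not every gene so chosen is reported here. Other genes named, such as Atf4, Atf6, Manf, Fos, Arc, Hmgcs1 and Relb, were chosen after their values were seen. The members and gene lists were chosen with earlier results of these data known. The list of 14 Nrf2 genes replaced, after the data were seen, a list taken from a figure of the study. Promoter windows were matched by symbol to RefSeq (GRCr8), a different build from the files.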

Additional observations from a re-analysis of the deposited data

Results flagged for a closer look

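The difference between DMF and MMF was not the same at 4 h and 24 h for 2373 genes, by the test of the difference between times over 12 libraries (limma, replicate block, adjusted over all genes). The values that follow are the 24 h difference minus the 4 h difference on the log2 scale. Among the leading genes that were higher with DMF at 4 h, the ER genes Hspa5, Herpud1, Hsp90b1 and Hyou1 gave -1.24, -1.03, -1.31 and -0.79. The nuclear factors Pcf11, Dgcr8 and Ppp1r10 gave -0.83, -0.82 and -0.81. Myom2, Wfikkn1 and Spon2 gave -2.61, -1.63 and -1.86.

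Among the leading genes that were lower with DMF at 4 h, the sterol genes Msmo1 and Fdft1 gave 0.76 and 0.29. The values of Nfya, Klf7 and Atf7ip, which act on transcription, were 1.42, 0.72 and 0.83. Cxcl12, Sstr2, Pnp and B4galt7 gave 1.55, 1.62, 0.72 and 0.68. The genes with the smallest p in this test were Rgs4 (2.37), Srebf1 (1.71) and Fasn (0.89) in the upward direction and Top2a (-1.86), Hsp90b1 and Cdc20 (-1.70) in the downward direction. The libraries of the 2 times are separate, and the cause of these differences was not tested.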

How the results depend on the processing

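The 3334 calls at 4 h became 223 with no replicate block, and 1749 in DESeq2 with the block. Requiring a log2 fold change beyond 0.5 left 961, and leaving out each pair gave 1450 to 4040, the lowest without replicate 3. In fits chosen after seeing the data, edgeR with no replicate block called 259 and limma with no replicate block and 1 library fewer called 0 (without DMF replicate 1, DMF replicate 2 or MMF replicate 2), 20 (without DMF replicate 3), 46 (without MMF replicate 1) and 60 (without MMF replicate 3). At 24 h, the 1737 calls became 505 with no replicate block, 1119 in DESeq2, 795 beyond 0.5 and 951 (without replicate 2) to 2712 (without replicate 3) without a pair. The 2373 calls of the difference between times became 583 with no replicate block, 1309 beyond 0.5 and 848 (without replicate 2) to 2396 without a pair. DMF against DMSO went from 3262 to 481 with no replicate block, 1747 in DESeq2, 1007 beyond 0.5 and 1619 (without replicate 3) to 3478 without a pair. MMF against DMSO went from 0 to 1 in DESeq2 and to 3, 115 and 9 without replicates 1, 2 and 3. Keap1, which was not called, changed sign without the third pair, and its log2 fold change was -0.234 to 0.043 when a pair was left out. The causes were not tested. The 95% interval reached 0.17 to either side of the estimate in the median gene. A call on the adjusted p is stricter than an interval clear of 0. Differences of this size or smaller were thus mostly not detectable with 3 pairs.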
